A study of Mus musculus with 4 samples.

Results

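Promoters that are poor in CpG dinucleotides yet lie in open chromatin were examined in dental mesenchymal cells of the mouse incisor. The assay, ATAC-seq, uses a transposase that inserts adapters where DNA is accessible. Among the regions listed by the authors, members were chosen by position and sequence and not by read count, though earlier results of these data were known. They are the regions listed by the authors whose midpoint lay within 1 kb of the transcription start site (TSS) of a protein-coding gene, where the sequence 1 kb either side of the nearest TSS held under 2 CpG per 100 bp. Divergent gene pairs with TSSs at most 1 kb apart were left out. This rule gave 2544 regions at 1691 genes, of 121574 regions in all. The class compared with them held 20329 regions at 10956 genes, whose promoters had 2 CpG per 100 bp or more. A listed region can hold few reads or none, and 143 members (5.62%) had 0 reads. Below, a promoter with a listed region is called open in that sense.

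The cells came from the incisors of wild-type C57BL/6 mice aged 4 weeks, without treatment. All 4 deposited samples are lanes of this 1 group and share 1 column of values, so the data describe 1 library. Nothing can be tested between conditions, and the spread between replicates is unknown. The sources used here do not say how many animals gave the cells. In such a mixed cell sample, a region used in few cells and one weakly accessible in all cells cannot be told apart. The library held 2297894 reads in regions, with a median of 7 reads a region. Read counts carry exact 95% Poisson intervals and shares carry exact 95% binomial (Clopper-Pearson) intervals. Both cover counting error only, and they take reads, regions and genes as independent, which PCR copies, neighbouring regions and gene families are not. Of 11 dental mesenchyme markers, 10 had a promoter region (median of the strongest region 99 reads), Barx1 being the exception. This compares with 4 of 5 odontoblast (median 10), 5 of 6 endothelial (14), 5 of 7 dental epithelium (10) and 1 of 8 leukocyte markers (0). In these medians, unlike those of the gene lists below, a marker without a promoter region counts as 0 reads. The marker sets were not matched for CpG density. In the longer gene lists below, 25 of 25 dental mesenchyme factors had a promoter of 2 CpG per 100 bp or more. Of 24 leukocyte genes, 23 had one under that limit. What part CpG density had in the marker contrast was not tested, so the contrast does not measure the make-up of the sample.

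Most mammalian promoters fall into CpG islands, stretches where CpG pairs are dense and usually unmethylated, and which serve housekeeping and developmental genes. The remaining promoters are depleted of CpG, since methylated cytosine mutates easily. They typically serve genes used in 1 cell type, such as structural, secreted and receptor genes, and textbook accounts link them to a TATA box and to start sites confined to a few bases. CpG islands bind factors such as Sp proteins and are commonly nucleosome-depleted in many tissues, whereas CpG-poor promoters tend to open with the cell type that uses them.

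Because the classes were split by CpG density around the TSS, fewer CG pairs near the TSS of members follow largely from the rule. The examples below illustrate the rule and test nothing. The following stretches are the 100 bases directly upstream of the TSS, on the gene's strand, from the mm10 (GRCm38) genome, with every CG pair in capitals. The 5 genes shown first are those with the strongest named CpG-poor open regions among stretches that overlap no annotated exon. They held 1 to 6 CG pairs.
Setmar, chr6:108064945-108065044, plus strand: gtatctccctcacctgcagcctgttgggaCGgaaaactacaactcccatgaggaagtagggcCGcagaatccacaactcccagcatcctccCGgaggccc
Zfp51, chr17:21450274-21450373, plus strand: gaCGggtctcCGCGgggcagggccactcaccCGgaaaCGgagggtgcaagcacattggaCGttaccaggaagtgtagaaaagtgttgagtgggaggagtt
Tcaf2, chr6:42645255-42645354, minus strand: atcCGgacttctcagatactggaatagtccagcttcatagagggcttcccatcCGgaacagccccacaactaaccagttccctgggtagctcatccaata
Serpinb9, chr13:33004441-33004540, plus strand: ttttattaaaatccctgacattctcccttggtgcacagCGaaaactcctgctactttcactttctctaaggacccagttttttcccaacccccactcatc
Zfp983, chr17:21650524-21650623, plus strand: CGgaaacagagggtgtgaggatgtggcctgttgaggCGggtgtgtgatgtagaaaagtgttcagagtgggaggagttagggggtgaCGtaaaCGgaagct

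Next to them stand 3 tooth and matrix genes, picked after their values were seen, with 0 to 3 CG pairs. Omd encodes the mineralised-tissue proteoglycan osteomodulin, Ambn the enamel matrix protein ameloblastin, and Panx3 a pannexin channel of skeletal cells. The last 2 are the strongest named CpG-rich promoters without a mitochondrial match, Ppp2r3d with 1330 reads and Ripk2 with 1084, which held 7 and 11 CG pairs.
Ambn, chr5:88455891-88455990, plus strand: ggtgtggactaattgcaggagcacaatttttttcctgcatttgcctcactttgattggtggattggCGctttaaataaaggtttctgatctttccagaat
Omd, chr13:49582362-49582461, plus strand: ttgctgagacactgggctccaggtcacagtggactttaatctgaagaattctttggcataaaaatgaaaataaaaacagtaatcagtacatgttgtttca
Panx3, chr9:37669236-37669335, minus strand: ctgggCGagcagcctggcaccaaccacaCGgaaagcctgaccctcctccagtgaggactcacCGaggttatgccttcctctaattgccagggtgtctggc
Ppp2r3d, chr9:124424155-124424254, minus strand: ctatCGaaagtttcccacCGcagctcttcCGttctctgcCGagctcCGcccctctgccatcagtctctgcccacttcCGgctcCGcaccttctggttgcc
Ripk2, chr4:16163648-16163747, minus strand: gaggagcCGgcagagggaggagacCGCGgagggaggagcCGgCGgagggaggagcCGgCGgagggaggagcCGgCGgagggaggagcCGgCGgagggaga

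Few CpG-poor promoters were open. Of 9817 genes with a CpG-poor promoter outside divergent pairs, 1691 had a region there (17.2%, interval 16.48% to 17.99%). Of 12532 genes with a CpG-rich promoter, 10956 did (87.4%, 86.8% to 88.0%). A gene with promoters of both kinds counts in both. Among the 7644 genes with only CpG-poor promoters, 1211 were open (15.8%, 15.03% to 16.68%), against 9105 of 10302 genes with only CpG-rich promoters (88.4%). Olfactory, vomeronasal and taste receptor genes, large families of sensory neurons, form a sizeable part of the former. Without them the shares were 19.5% (1198 of 6156 genes) and 88.4%.

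Openness followed CpG density in steps and not in a single jump at the limit. Below 0.5 CpG per 100 bp, 76 of 4226 TSS positions had a region midpoint within 1 kb (1.80%). The share was 8.46% from 0.5 to 1, 25.6% from 1 to 1.5 and 43.4% from 1.5 to 2. It went on to 65.8% from 2 to 2.5 and 81.9% from 2.5 to 3, and it reached 95.9% at 6 or more. TSSs of 1 gene can share a region, so these positions are not independent. The median reads per listed region moved far less. It was 10 below 0.5 CpG per 100 bp, from 66 regions, then 6, 7 and 8 in the next 3 classes. It peaked at 18 from 3 to 6. The upper part of the range did climb with density. At least 100 reads were found in 0.265% of regions from 0.5 to 1, 1.90% from 1.5 to 2 and 22.4% at 6 or more. The strongest region of a gene had a median of 13 reads in the CpG-poor class and 62 in the CpG-rich class. Among members, the Spearman correlation of reads with window CpG density was 0.086 over 2544 regions of this 1 library.

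**Figure D1:**
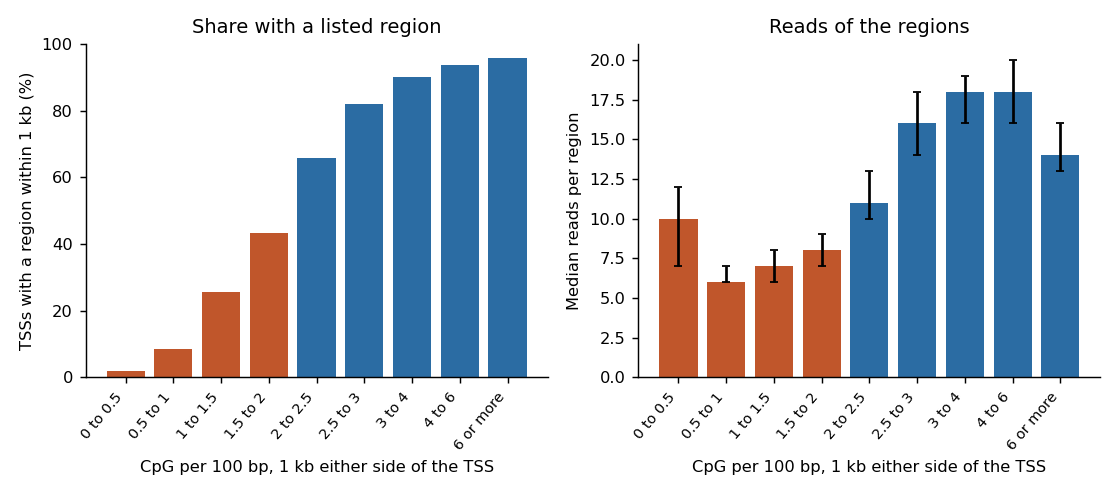
Share of TSS positions with a listed region within 1 kb (left, %) and median reads of promoter regions (right, bars with 95% intervals of the median), by CpG per 100 bp within 1 kb of the TSS; orange bars are CpG-poor, blue bars CpG-rich. The share climbed from 1.80% to 95.9%, while median reads per region stayed between 6 and 18. Regions of at least 100 reads, not drawn here, rose to 22.4% of regions at 6 CpG per 100 bp or more.

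CpG-poor open promoters were shallow. Members had a median of 7 reads (quartiles 3 and 19, interval of the median 7 to 8), the same as the median of all regions in the library. CpG-rich promoter regions had a median of 16 (quartiles 3 and 69). The lower quartiles were equal, and the classes parted in the upper part of the range. At least 10 reads were found in 1092 members (42.9%) against 57.2% of CpG-rich regions. At least 100 reads were found in 37 members (1.45%) against 3404 CpG-rich regions (16.7%). The most reads in a member were 317. The most in a CpG-rich region were 2150, in 1 of 2 CpG-rich regions that matched the mitochondrial genome, and 1330 without those. Members took 39702 of the 1053032 reads in both classes (3.77%), while they made up 11.1% of the regions.

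**Figure D2:**
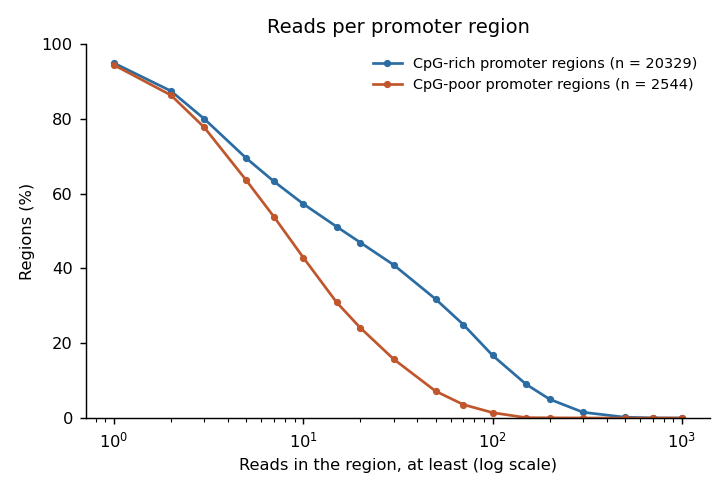
Percentage of promoter regions (y axis) with at least the number of reads on the x axis (log scale), for CpG-poor (orange) and CpG-rich (blue) promoters. The curves lie together at few reads and separate above about 5, with 1.45% against 16.7% of regions at 100 reads or more.

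Width went along with this difference. Members were narrower, with a median of 283 bases against 399, and reads followed width in both classes (Spearman correlations 0.731 and 0.869 across regions). Reads per kilobase still had a lower median, 25.6 in members (24.4 to 27.0) against 41.4 (40.3 to 42.8). Among regions of 250 to 400 bases the medians were 9 and 8 reads. Among regions of 600 to 1000 bases they were 44.5 over 216 members and 88 over 4996 CpG-rich regions. Narrow regions thus held similar reads in both classes, and the wide regions differed. Stretches split into abutting regions were fewer in the poor class, with 1115 members (43.8%) touching another region against 70.8%.

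Members centred on the TSS. Their midpoints had a median offset of -0.5 bases (quartiles -160.2 and 182), against 44 bases downstream (-105 and 282) in the CpG-rich class. A member overlapped the TSS base itself in 1208 cases (47.5%), against 53.2%. Members that did had a median of 14 reads, and those that did not had 4. The corresponding CpG-rich medians were 61 and 3. A TSS of another gene of any type lay inside 70 members (2.75%) and inside 8.56% of CpG-rich regions.

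**Figure D3:**
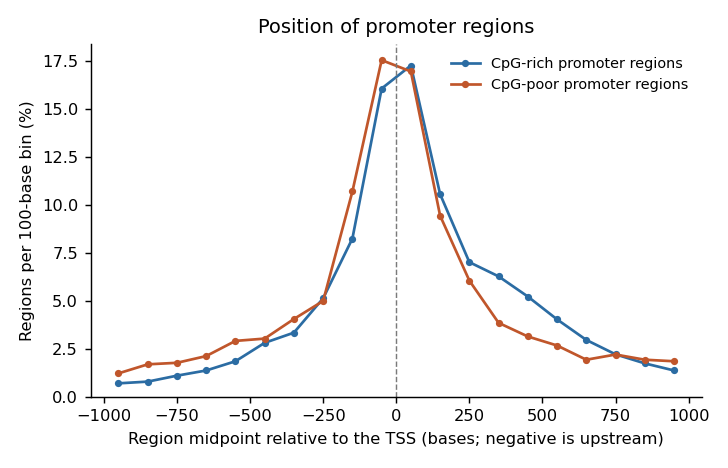
Percentage of regions per bin of 100 bases (y axis) by the position of the region midpoint relative to the TSS (x axis, bases, negative upstream), for CpG-poor (orange) and CpG-rich (blue) promoters. Both classes peak at the TSS, and the CpG-rich curve is higher from 200 to 600 bases downstream.

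The open stretch was often less depleted of CpG than its surroundings. The median CpG density of the 2 kb window around a member's TSS was 1.45 per 100 bp, and that of the member region itself was 1.86. In 1175 members (46.2%) the region held 2 CpG per 100 bp or more, although the window did not. Those had a median of 10 reads, against 6 in the other members. Neither trait was particular to members. In the CpG-rich class the median density was 4.80 in the window and 7.25 in the region. CpG-rich regions with 2 CpG per 100 bp or more had a median of 19 reads, and the others 3. Median G and C content was 52.5% in members and 63.5% in CpG-rich regions. Repeats, soft-masked in the reference, covered at least 50% of 0.668% of members and of 0.531% of CpG-rich regions, and no member matched the mitochondrial genome.

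Part of the class consisted of alternative promoters. Of the 1691 open genes, 1211 had only CpG-poor promoters, and 400 had an open CpG-rich promoter as well. In those 400 genes the strongest CpG-rich region had more reads in 342 and fewer in 55. The medians were 53.5 reads at the CpG-rich promoter and 12 at the CpG-poor one. Runx2, the master factor of osteoblast differentiation, is such a gene. Its CpG-poor promoter (chr17:44814480-44814784) had 15 reads (8.40 to 24.7) and its strongest CpG-rich promoter region 24.

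At genes with only CpG-poor promoters that also had regions elsewhere, the strongest region was mostly away from the promoter. A region nearest to the gene but over 1 kb from its TSSs was listed in addition for 914 of the 1211 genes. The promoter held the most reads in 317 of these (34.7%, 31.6% to 37.9%), against 5183 of 6785 genes with only CpG-rich promoters (76.4%, 75.4% to 77.4%). The strongest region elsewhere had a median of 20 reads in both classes. Promoter medians were 12 and 64, so the medians parted at the promoter only. The median number of regions elsewhere was 2 in both. Promoter regions held 28.8% of the reads assigned to the 1211 open genes with only CpG-poor promoters and 57.2% for the 9105 with only CpG-rich ones. A further 2434 genes with only CpG-poor promoters had regions elsewhere and none at a promoter. Assignment by nearest TSS need not name the gene a region acts on.

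The strongest members served genes of varied function. Setmar, a histone lysine methyltransferase, had 317 reads (283 to 354) at chr6:108064950-108065825, a region over its TSS. Zfp51, a zinc finger gene, had 218 (190 to 249) at chr17:21449799-21450676. Lgals12, which encodes galectin-12, had 166 (142 to 193) in a region centred 660 bases downstream of its TSS that does not reach it. The next were Tcaf2, a regulator of TRP channels, with 148 reads, and Serpinb9, an inhibitor of the protease granzyme B, with 146. These 5 genes had only CpG-poor promoters. At Tcaf2 and Serpinb9 this region was the only region assigned to the gene.

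From the sixth to the fifteenth place, reads ran from 138 to 121. Zfp983 had 138, and so did Klf13, a Kruppel-like factor, whose region was centred at -847 bases from a CpG-poor TSS (negative is upstream). Its strongest CpG-rich promoter region had 459 reads. Akr1e1, an aldo-keto reductase, had 137, the Cdc42 effector Cdc42ep5 had 134, and Cyp2j9, a cytochrome P450, and Msl3l2 had 126 each. Ifit2, induced by interferon, had 124 (103 to 148) in its only region. Smarcal1, an annealing helicase at stalled replication forks, had 123, and the quinone reductase Nqo2 and the growth factor Egf had 121 each. Intervals of neighbours in this order overlap, so their ranks are not resolved at this depth. Except for Klf13, these genes had only CpG-poor promoters. Lgals12 and Klf13 were the only 2 of the 15 whose region did not overlap the TSS.

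Zinc finger genes of the Zfp series, many of which encode repressors of the KRAB type, held the most strong members of the 22 gene lists examined. Of 170 Zfp genes with a CpG-poor promoter, 58 were open (34.1%, 27.0% to 41.8%), against 17.2% of all CpG-poor genes. That 17.2% mixes CpG densities. Of TSS positions, 1.80% had a region below 0.5 CpG per 100 bp, 25.6% from 1 to 1.5 and 43.4% from 1.5 to 2. Neither this list nor those below were matched for density, so their shares may differ from 17.2% with density alone, which was not tested. Their strongest regions had a median of 38 reads, against 13 over all open CpG-poor genes. At least 50 reads were reached by 21 of them, against at most 3 genes in any other list. They made up 11.5% of the 182 open genes at that level and 3.43% of the 1691 open genes. Of the 247 Zfp genes with a CpG-rich promoter, 234 were open there, with a median of 66 reads. Of the 100 Zfp genes with only CpG-poor promoters, 55 were open, against 15.8% of all genes with only CpG-poor promoters.

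Several of these genes sit side by side. On chromosome 17, within 267.5 kb (chr17:21383419-21650933), 6 genes each had a CpG-poor region of at least 50 reads, with gaps of at most 200 kb between them. They had 88 (Zfp677), 92 (Zfp54), 218 (Zfp51), 72 (Zfp52), 111 (Zfp948) and 138 reads (Zfp983). The strongest Zfp52 region was centred at -817 bases from the TSS and did not reach it, whereas those of the other 5 genes overlapped theirs. A weaker region over the Zfp52 TSS (chr17:21535442-21535626) had 29 reads. In the 15 pairs of these promoters (250 bases upstream to 50 downstream), the longest run of identical bases was 7 to 20 bases long, with a median of 12. The sources used here do not say how reads that map to several copies were placed, so counts of such gene families are uncertain. Other neighbours above 50 reads included Serpinb6b (98) with Serpinb9 (146), Cyp2j6 (61) with Cyp2j9 (126), and Tcaf1 (96) with Tcaf2 (148).

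Genes of the dentin, bone and connective tissue matrix were commonly open at CpG-poor promoters, though with moderate reads. In the dentin and bone matrix list 6 of 10 CpG-poor genes were open (60%, 26.2% to 87.8%), with a median of 20.5 reads. Sparc, the collagen-binding glycoprotein osteonectin, had 90 reads (72.4 to 111) at chr11:55419648-55420286 over its TSS. Ibsp, bone sialoprotein, had 24 (15.4 to 35.7) at chr5:104298930-104299312. Bglap, osteocalcin, also had 24, and Bglap2 had 17. Dspp, the source of the main noncollagenous dentin proteins, had 10, and Dmp1, another acidic matrix protein, had 9. No region was listed at the promoters of Mepe, Phex, Sost and Spp1.

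Of the small leucine-rich proteoglycans, which bind collagen fibrils, 7 of 12 CpG-poor genes were open (58.3%, 27.7% to 84.8%; median 14 reads). Omd had 44 reads (32.0 to 59.1) at chr13:49582120-49582705, 86.3% of all reads assigned to that gene. Lumican (Lum) had 35, in a region centred 485 bases downstream of its TSS, fibromodulin (Fmod) 22 and decorin (Dcn) 14. Biglycan (Bgn) and Prelp had 10 each and Ogn 5. Aspn, Ecm2, Epyc, Kera and Podn had no region at a CpG-poor promoter. Of 15 CpG-poor collagen genes 12 were open (80%, 51.9% to 95.7%), with a median of 11.5 reads and 7 at 10 reads or more. Col9a1, a cartilage collagen, had 37 in a region 917 bases downstream of a TSS. Col6a1, of the pericellular type VI network, had 34 (23.5 to 47.5), Col22a1 26, Col5a2 22 and Col3a1 12. The regions at Col20a1 and Col6a6 had 0 reads.

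Further members of this kind were named after their values were seen. Ptn, the secreted growth factor pleiotrophin, had 117 reads (96.8 to 140), and its strongest region elsewhere had 64. Emilin1, a glycoprotein of elastic fibres, had 107 (87.7 to 129). Panx3 had 106 (86.8 to 128) at chr9:37669023-37669597, 92.2% of the reads assigned to the gene. Olfml3, a secreted olfactomedin-like protein, had 95 (76.9 to 116).

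A high share was also found for the actin cytoskeleton and smooth muscle list, but with fewer reads. Of its CpG-poor genes 7 of 9 were open (77.8%, 39.99% to 97.2%), with a median of 8 reads and 2 genes at 10 or more. The smooth muscle actin gene Acta2 had 14 and caldesmon (Cald1) 21. Matrix proteases and inhibitors were open in 7 of 22 cases (31.8%, 13.9% to 54.9%, an interval that holds the 17.2% of all CpG-poor genes), led by Serpinf1, which encodes the secreted factor PEDF, with 54 reads in a region 977 bases downstream of the TSS, and by Adamts12 with 47. In the list of metallothioneins, S100 proteins and annexins, 8 of 20 were open (40%, 19.1% to 63.95%), with a median of 26 reads. The small calcium-binding proteins S100a6 with 67 (51.9 to 85.1), S100a4 with 37 and S100a16 with 36 led it.

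Enamel genes stood apart from one another. Ambn had 106 reads (86.8 to 128) at chr5:88455288-88456053, a region over its TSS that held 56.4% of the reads assigned to the gene. Mmp20, an enamel protease, had 17 at its promoter and 142 in its strongest region elsewhere. No region was listed at the CpG-poor promoters of Amelx, Enam, Amtn, Klk4, Odam, Dsg3 and Trp63. The dental epithelium markers had promoter regions in 5 of 7 cases, with a largest count of 106 at Ambn itself and none at Amelx and Enam. What share epithelial cells in the sample had in these reads was not tested.

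Lists of sensory receptors, natural killer receptors, keratins and serpins had intervals below the 17.2% of all CpG-poor genes, whereas those of the leukocyte, cytokine and liver-made lists held that share. Of 23 leukocyte genes, 2 had a CpG-poor promoter region (8.70%, 1.07% to 28.0%), Aif1 and Lyz2 with 7 reads each. None of 61 natural killer and Fc receptor genes did, which allows a share of up to 5.87% by the upper interval bound. Olfactory receptors were open in 11 of 1133 cases (0.971%) and vomeronasal and taste receptors in 2 of 366 (0.546%). The olfactory receptor genes with most reads were Olfr156 (21) and Olfr691 (20). Keratins and keratin-associated proteins were open in 8 of 91 cases (8.79%, 3.87% to 16.6%) with a median of 4.5 reads, Krt80 having 14 and Krt14 11. For serpins, kallikreins and defensins the count was 13 of 140 (9.29%, 5.04% to 15.4%), and for liver-made plasma proteins and cytochromes 11 of 102 (10.8%, 5.51% to 18.5%). Chemokines, cytokines and their receptors were open in 21 of 141 cases (14.9%, 9.46% to 21.9%), led by Il11ra1 with 55 reads (41.4 to 71.6) and Il15 with 36.

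Endothelial genes were commonly listed as open but with few reads. Of 8 such genes 5 were open (62.5%, 24.5% to 91.5%), with a median of 4 reads and 2 genes at 10 or more. Tie1, an endothelial receptor tyrosine kinase, had 15 at its promoter and 1 in its strongest region elsewhere. Cdh5, the endothelial cadherin, had 13 at the promoter and 127 elsewhere. Skeletal muscle genes were open in 4 of 18 cases (22.2%, 6.41% to 47.6%). The troponin genes Tnni2 (41 reads) and Tnnt3 (15) led them, through regions centred at -991 and -939 bases from the TSS. Developmental and housekeeping lists were almost absent from the class. Of 25 dental mesenchyme factors 2 had a CpG-poor promoter, at Runx2 and Prrx2. The corresponding counts were 1 of 25 immediate early genes found in the annotation and 4 of 83 ribosomal protein genes.

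**Figure D4:**
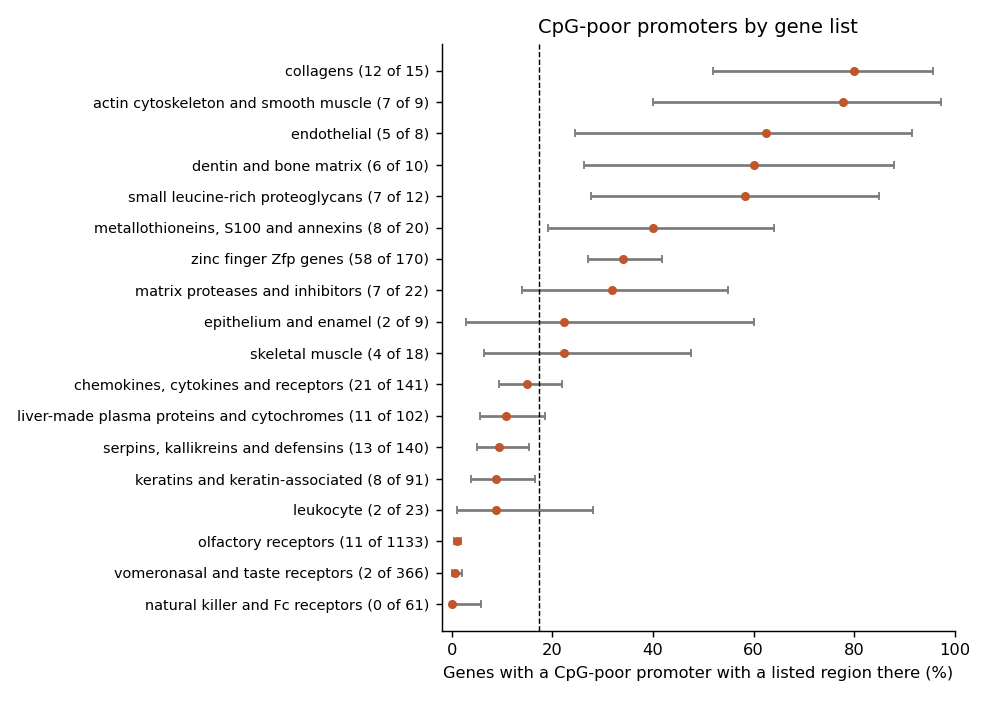
Percentage of genes with a CpG-poor promoter that had a listed region there (points) with exact 95% binomial intervals (bars), for each list with at least 8 such genes; the dashed line marks all CpG-poor genes, 17.2%. The intervals of collagens (80%), actin and smooth muscle (77.8%) and endothelial genes (62.5%) lie to the right of the line. So do those of dentin and bone matrix (60%), proteoglycan (58.3%), metallothionein, S100 and annexin (40%) and Zfp genes (34.1%). To the left lie those of olfactory (0.971%) and vomeronasal and taste receptors (0.546%), natural killer and Fc receptors, keratins and serpins.

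A TATA box, the AT-rich element that positions the transcription machinery, was searched as TATAAA on the gene's strand, 40 to 20 bases upstream of the TSS, with 1 promoter per gene. It was found at 37 of 1691 open CpG-poor promoters (2.19%, 1.545% to 3.003%). At CpG-poor promoters without a region it was found at 351 of 6811 (5.15%, 4.64% to 5.70%), and at open CpG-rich ones at 91 of 10956 (0.831%, 0.669% to 1.02%). Open CpG-poor promoters thus lay between the other classes, and their interval met neither. The TSS was chosen differently in these sets. Open genes were given the TSS nearest to their region with the most reads, and genes without a region the TSS with most transcripts. What part this had in the difference was not tested. The annotated start was the first coding base, with no untranslated leader, in 18.8% of promoters without a region and 5.62% of open ones. With such starts left out the shares were 6.22% (344 of 5532) and 2.32% (37 of 1596). Of the 182 open genes with at least 50 reads, 1 held it (0.55%, 0.014% to 3.02%), an interval that holds the 2.19% of all open CpG-poor promoters. Open promoters with the box had a median of 9 reads (5 to 14), and those without it 13 (12 to 13).

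Of the strongest promoters with the box, 2 are given here over their 100 upstream bases, with the match in capitals. It began at bases -30 and -33 from the TSS, in that order.
Aqp1, chr6:55336332-55336431, plus strand: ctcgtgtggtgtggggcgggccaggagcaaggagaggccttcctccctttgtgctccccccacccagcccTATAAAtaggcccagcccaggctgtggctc
Angpt4, chr2:151911110-151911209, plus strand: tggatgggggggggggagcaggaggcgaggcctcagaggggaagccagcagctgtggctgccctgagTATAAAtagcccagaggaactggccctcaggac

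Aqp1, the water channel aquaporin 1, had 95 reads (76.9 to 116) at chr6:55335952-55336590, which includes the box. Angpt4, an angiopoietin, had 42, but its region was centred at -515 bases from the TSS and did not reach it. The region of S100a4, with 37 reads, did not reach its TSS either. Irf7, an interferon regulatory factor, had 29 (19.4 to 41.6) in a region over its TSS.

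Motifs of other factors were counted as exact matches on both strands from 250 bases upstream to 50 downstream of the TSS, with 1 promoter per gene. For CpG-poor promoters without a region, receptor families were left out (5324 genes). As for the TATA box, the TSS was chosen differently at open genes and at genes without a region. GGGCGG, the GC box of Sp factors, was in 21.4% of open CpG-poor promoters, 9.03% of those without a region, 71.3% of open CpG-rich ones and 43.9% of all 21851 genes. Among open CpG-poor promoters it was in 33.0% with at least 50 reads and 17.0% under 10 reads. CCGGAAG, an Ets site, was in 4.55%, 2.33%, 16.0% and 10.9% of these 4 sets. Both motifs contain a CG pair, as do TGACGTC (Creb and Atf) and CACGTG (E-box), so their counts move with CpG density.

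CCAAT, the NF-Y box, holds no CG pair. It was in 35.7% of open CpG-poor promoters, 39.3% of those without a region, 36.2% of open CpG-rich ones and 37.9% of all genes. With at least 50 reads the share was 50% (91 of 182, 42.5% to 57.5%), and under 10 reads it was 28.5% (196 of 687, 25.2% to 32.1%). The bHLH site CAGCTG was in 22.2%, 18.8%, 14.7% and 15.7% of the 4 sets.

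Sites of several factors active in mesenchyme were not more frequent at open than at other CpG-poor promoters. TGANTCA, the AP-1 site, was in 9.58% with a region and 10.7% without, against 4.02% of open CpG-rich and 6.89% of all promoters. TGTGGTT, the Runx site, was in 7.51%, 8.43%, 3.02% and 4.88%, and GGAATGT, the Tead site, in 4.97%, 5.84%, 2.31% and 3.55%. TTGGCA, an NFI half-site that can share bases with the reverse of CCAAT, was in 17.6%, 18.2%, 9.98% and 13.2%. The homeobox core TAATTA was in 5.32% with a region and 7.42% without, and the Sox site ACAATGG in 2.90% and 4.81%. All genes had them in 5.07% and 3.04%. The sets were not matched for base composition, and what part that had in these shares was not tested. A match is a description of letters, not of binding.

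**Figure D5:**
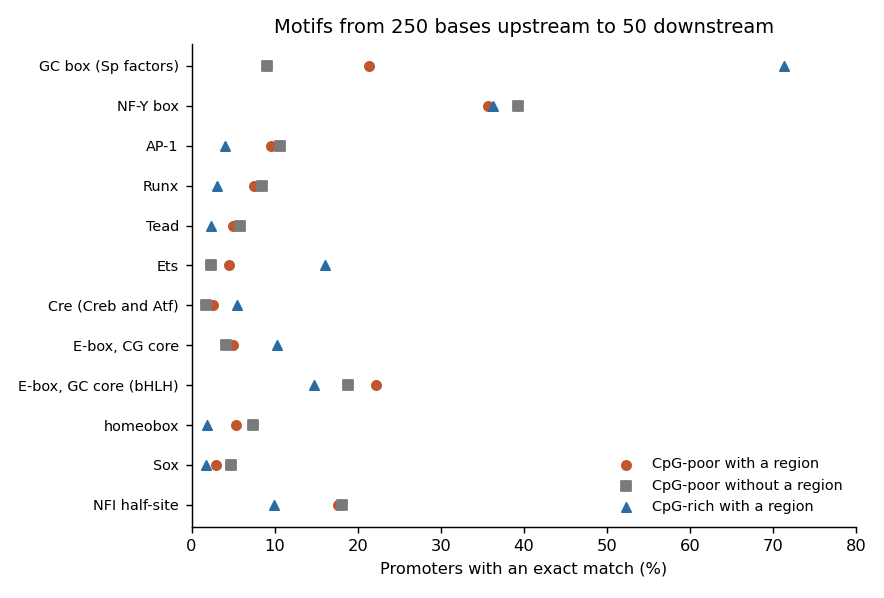
Percentage of promoters with an exact match to each of 12 motifs (x axis), for CpG-poor promoters with a region (circles), CpG-poor ones without (squares, receptor families left out) and open CpG-rich ones (triangles). The GC box runs from 9.03% to 71.3%, whereas the NF-Y box lies between 35.7% and 39.3% in all 3 sets.

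The limit of 2 CpG per 100 bp divides a continuum. Just inside it, with 40 CpGs in the window, were Nqo2 with 121 reads, Ndufa3 with 116 and Arhgap18 with 115. Just outside, with 41 CpGs, were Pter with 245, Zfp13 with 190 and Lipa with 154. Only regions of at least 50 reads were considered, and equal counts were ordered by reads.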

How the data were processed

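Per the labels' protocols, BWA-MEM was the aligner (build mm10), MACS2 the peak caller and HOMER the tool for annotation and motifs. STAR 2.6.1d and Partek appear in the submitters' processing notes with no role stated. Duplicate removal, transposase offset shift, the placing of multiply mapped reads and the libraries on which regions were called are not given in the sources used here. The authors deposited regions with values in CPM, which behave as if 1 read had been added to each region. Dividing by the column minimum and subtracting 1 gave whole reads in 99.9% of regions (tolerance 0.01 read, 84 exceptions). The table also holds 1 value column without a sample, which was not used. A shorter deposited table was not used because its row cannot be tied to 1 sample.

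Protein-coding TSSs came from the GENCODE vM21 basic annotation and sequence from GRCm38. A pair was divergent when a minus-strand TSS lay at or up to 1000 bases left of a plus-strand TSS. The region with the most reads stood for a gene. For a gene without a region the TSS with most transcripts was used. Genes named were the 15 strongest members, the 5 strongest with TATAAA and the 3 strongest of each of 22 lists; unnamed genes (Gm, Rik and clone names) were left out of the first 2 of these groups. Further list members and neighbours are named to complete a list or a cluster, with their values known. Of the genes with TATAAA, 1 is not reported here. Members and lists were chosen with earlier results of these data known. Mitochondrial matches were searched with blastn 2.17.0 (e-value 1e-05). Intervals were computed with scipy 1.17.1 in Python 3.11.15, and functions were tested on simulated data.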

Additional observations from a re-analysis of the deposited data

How the results depend on the processing

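Of 48 recomputed values, 21 kept to the reported interval (counts within 1.5 times) and 27 moved. Most settings admit other promoters by construction, while those that change the motif window, the unit counted or the scale keep the same ones. The cause was not tested further. The reported values were 2544 regions, 17.2% of genes open, a median of 7 reads, 3.77% of promoter reads and, at genes with only CpG-poor promoters, the promoter as strongest region in 34.7%. With a limit of 1.5 CpG per 100 bp these were 1437 regions, 12.04% of genes, 1.87% of reads and 29.9%. With a limit of 2.5 they were 3824, 22.6%, 6.83% and 41.2%. An observed over expected CpG ratio under 0.4 gave 3869 regions, 22.4% of genes and 6.58% of reads. Midpoints within 500 bases gave 15.02% of genes and 3.48% of reads. Regions over the TSS base were 1208, at 11.6% of genes, with a median of 14 reads, 3.05% of reads and 38.3%. A minimum of 10 reads left 1092 regions at 10.2% of genes, a median of 22, 3.36% of reads and 42.5%. Genes with only CpG-poor promoters gave 15.8% of genes and 2.89% of reads. The median was 13 with 1 region per gene, and 14 with reads summed per gene. The last of these settings, and those for the strongest region, were chosen after seeing the data. The TATAAA share stayed between 1.70% and 2.73% in all settings tried.

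The minimum of 10 reads lowered the open genes from 12 to 7 among collagens, 7 to 2 in the actin list, 5 to 2 in endothelium, 4 to 2 in skeletal muscle, 21 to 8 among cytokines, 11 to 2 among olfactory receptors, 8 to 3 among keratins, 13 to 8 among serpins and 11 to 7 in the liver-made list. Leukocyte genes, and vomeronasal and taste receptors, went from 2 to 0. Zfp genes (58 to 52), dentin and bone matrix (6 to 5), proteoglycans (7 to 6), proteases (7 to 5) and S100 genes (8 to 6) moved by less than 1.5 times. Leaving out each lane could not be run, because the lanes share 1 column. With a median of 7 reads, single members near the median are known only to within a few-fold.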
